A study of Homo sapiens with 6 samples.

Results

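The genes described here are the long intergenic noncoding RNAs that carry a LINC symbol with a number and no host gene or antisense suffix. They were chosen by a summed raw count of 200 or more over 6 RNA-seq libraries, and 111 of the 60651 gene rows met this rule. The tables hold 2267 rows with such a symbol, of which 780 had at least 1 count, and 669 of these 780 stayed under 200. The 111 rows stand for 110 symbols, since LINC01605 is on 2 rows. The cells were MDA-MB-231, a triple negative human breast cancer line with wild-type genotype in the labels. They were grown in serum-containing DMEM and kept for 24 h with DMSO, the control, or with AF-EAE, given at 75 µg/ml or at 150 µg/ml. AF-EAE is an extract of Antenoron filiforme made with ethyl acetate, so it is a plant mixture and not a single compound. Each of the 3 groups had 2 libraries of total RNA from 1 cell line, and the series is a test of what the extract does to these cells. The labels call the 2 libraries of a group biological replicates, but the sources used here do not say whether they are separate cultures. A p-value therefore measures only how far these libraries spread, with each gene's spread drawn toward that of other genes.

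Long intergenic noncoding RNAs are transcribed outside protein-coding genes, mostly by RNA polymerase II, and are often spliced, capped and polyadenylated like messenger RNA. They tend to be made at lower levels than messenger RNAs and to be restricted to fewer cell types. Some act on chromatin or transcription near the place where they are made, others bind proteins or microRNAs elsewhere in the cell, and for most symbols no function has been established. A LINC symbol names a locus and carries no statement of function.

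The libraries held 15621103 to 17113722 gene counts, at which 3 counts equal 0.175 to 0.192 CPM (a gene's counts scaled to a common library total). Of 6 markers listed for this line, VIM, CD44, AXL, ZEB1 and KRT18 were present, with VIM at 582 to 795 CPM, and SPARC was nearly absent at 0.122 to 0.549 CPM. Of the luminal markers, ESR1 and PGR did not exceed 0.929 and 0.0613 CPM, CDH1 and FOXA1 lay near 0, EPCAM was at 3.47 to 5.55 CPM, GATA3 at 7.62 to 14.6 CPM and ERBB2 at 78.9 to 101 CPM. The leukocyte markers PTPRC and CD3E were at 0 in all 6 libraries, and the highest fibroblast or endothelial marker, COL1A1, was at 6.14 to 11.4 CPM. Of all counted reads, 6.32% and 6.72% lay outside annotated genes with DMSO, 6.44% and 7.23% did at 75 µg/ml, and 7.98% and 7.73% did at 150 µg/ml. That share was higher in both libraries at 150 µg/ml than in the other 4, and its part in the results below was not tested.

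Promoter windows are shown for some of the genes on which the results turn. Each is 300 bases long, from 250 bases before to 50 after a RefSeq start on GRCh38.p14, 5′ to 3′ on the gene's strand. Capitals mark matches to the motifs searched on both strands, and a window in lower case throughout held none. LINC02392 rose most. LINC01270 had the next largest rise and holds 2 matches, side by side, to the antioxidant response element core TGACNNNGC, which the factor NRF2 binds in stressed cells. LINC00702 was among the largest falls and holds the AP-1 motif TGANTCA. Windows not shown go the other way: LINC00472 fell and holds the antioxidant response element core, and LINC00963 rose and holds AP-1. LINC02970 was 1 of the 5 most abundant LINC genes and holds the core TGATGNAA, read on the opposite strand, of the composite element bound by ATF4, a factor of the integrated stress response.
LINC02392, chr12:90293068-90293367, + strand: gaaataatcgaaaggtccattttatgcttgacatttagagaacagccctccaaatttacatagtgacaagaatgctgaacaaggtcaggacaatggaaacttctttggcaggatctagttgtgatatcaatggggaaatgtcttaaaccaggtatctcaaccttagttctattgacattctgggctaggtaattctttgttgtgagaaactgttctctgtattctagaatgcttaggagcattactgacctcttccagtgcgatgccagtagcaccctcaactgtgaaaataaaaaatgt
LINC01270, chr20:50292470-50292769, + strand: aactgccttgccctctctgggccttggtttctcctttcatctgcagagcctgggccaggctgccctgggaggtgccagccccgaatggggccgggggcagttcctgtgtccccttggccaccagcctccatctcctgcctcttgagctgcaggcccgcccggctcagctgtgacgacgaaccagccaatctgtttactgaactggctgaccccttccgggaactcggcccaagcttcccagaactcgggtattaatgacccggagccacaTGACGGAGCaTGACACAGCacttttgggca
LINC00702, chr10:4243863-4244162, - strand: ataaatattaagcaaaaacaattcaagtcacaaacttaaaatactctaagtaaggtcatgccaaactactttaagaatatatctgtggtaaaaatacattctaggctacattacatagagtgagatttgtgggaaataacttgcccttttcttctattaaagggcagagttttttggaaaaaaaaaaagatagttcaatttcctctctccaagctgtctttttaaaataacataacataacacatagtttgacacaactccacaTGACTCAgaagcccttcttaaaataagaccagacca
LINC02970, chr20:62603392-62603691, - strand: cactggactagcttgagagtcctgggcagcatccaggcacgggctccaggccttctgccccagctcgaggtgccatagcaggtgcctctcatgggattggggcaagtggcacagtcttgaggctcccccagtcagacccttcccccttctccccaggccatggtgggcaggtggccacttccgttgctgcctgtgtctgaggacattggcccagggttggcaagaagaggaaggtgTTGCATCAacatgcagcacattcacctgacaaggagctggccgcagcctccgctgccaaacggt
The RefSeq starts of LINC01270 and LINC00702 coincide with the GENCODE 29 starts. That of LINC02970 lies 326 bases from the GENCODE start, and that of LINC02392 lies 12424 bases from it, inside the gene.

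A window was at hand for 83 of the 110 symbols. Of these 83, 24.1% held the antioxidant response element core, against 13.6% of all 27305 windows and 15.1% of those of protein-coding genes with the same minimum count. AP-1 was in 13.3% of the LINC windows, against 7.76% of all and 4.26% of the protein-coding ones. The TATA box TATAAA was in 13.3%, against 11.95% and 4.95%. The xenobiotic response element core GCGTG, bound by the aryl hydrocarbon receptor, was in 27.7%, against 36.3% and 51.9%. The TEAD motif GGAATG was in 8.43%, against 14.0% of all windows and 10.5% of the protein-coding ones. The ATF4 core was in 2.41%, below the 3.67% of all windows and above the 1.62% of the protein-coding ones. The antioxidant response element core and AP-1 can overlap, since both begin with TGA. Among LINC genes that rose at 150 µg/ml, 4 of 25 windows held the antioxidant response element core, against 3 of 10 among those that fell and 13 of 48 among those that did not pass the test. At 75 µg/ml the core was in 7 of 23 windows of risers, 2 of 7 of fallers and 11 of 53 of the rest, so the order of these shares differed between the doses. At 150 µg/ml the median GC content of the window was 46.5% for those that fell, 60.3% for those that rose and 60.7% for the rest.

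The LINC genes were expressed at low levels. Their mean level over the 6 libraries, in CPM scaled by TMM (a factor that corrects for library composition), ran from 2.03 to 362, with a median of 4.86, against a median of 41.8 for the 11060 tested protein-coding genes with the same minimum count. Per kilobase of annotated exon the medians were 1.86 and 7.82 CPM. Of the 111, 27 exceeded 10 CPM. Most were spliced: 99 had more than 1 exon, and the exonic length ran from 436 to 28876 bases with a median of 3283. GENCODE 29 types 83 of them as lincRNA, 11 as processed transcript, 6 as antisense, 6 as transcribed pseudogene and 1, LINC02693, as the protein-coding gene C17orf51. At 23 rows the GENCODE symbol differed from the LINC symbol. The name "intergenic" holds in part: 44 overlapped no annotated gene and 12 overlapped a protein-coding gene. For 45 of the 111, exons were shared with another gene. The sources used here do not say whether counting used the strand, so reads of such pairs cannot be told apart.

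**Figure D1:**
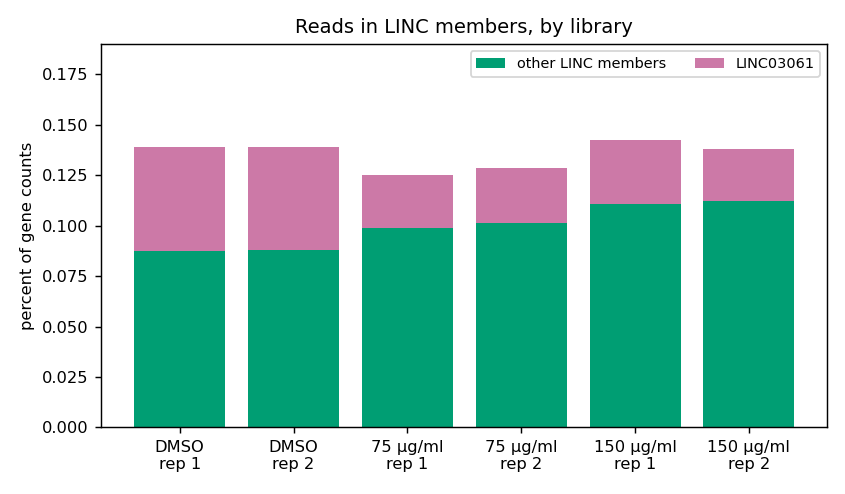
Percent of all gene counts that fell in the LINC genes, for each of the 6 libraries (x axis), with and without LINC03061. The share with LINC03061 was 0.125% to 0.143% and showed no order by dose, while the share without it was lowest in the DMSO libraries and highest at 150 µg/ml.

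LINC03061 alone carried a large part of these reads. The 111 genes took 0.139% of gene counts in both DMSO libraries. The share was 0.125% and 0.129% at 75 µg/ml, and it was 0.143% and 0.138% at 150 µg/ml. Without LINC03061 the share was 0.0876% and 0.0879% with DMSO, 0.0987% and 0.101% at 75 µg/ml, and it reached 0.111% and 0.112% at 150 µg/ml, so the groups did not overlap. In RNA from whole cultures, fewer cells of a type and less RNA per cell cannot be told apart.

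At 75 µg/ml, 28 of the 111 LINC genes rose and 12 fell against DMSO, while 71 did not pass edgeR's quasi-likelihood test at a Benjamini-Hochberg adjusted p of 0.05 over all 15589 genes tested. That is 25.2% higher and 10.8% lower, against 19.2% and 19.4% of all genes tested. At 150 µg/ml, 32 rose and 18 fell, 28.8% and 16.2%, against 25.8% and 25.7% of all genes tested. Risers thus outnumbered fallers at both doses. Protein-coding genes with the same minimum count split 22.5% higher to 25.3% lower at 75 µg/ml and 28.9% to 32.8% at 150 µg/ml. The summed count takes in both treated groups beside DMSO, so a gene that is low with DMSO can meet the minimum through its rise. LINC02392 had 4 and 3 counts with DMSO and a sum of 217, and LINC01270 had 11 and 9 and a sum of 244. Both met the minimum through their treated counts. Protein-coding genes in the lowest band of counts, given below, also rose more often than they fell. The median of the LINC genes at 150 µg/ml was -0.09 in that band and 0.63 from 2000 counts upward. How much of the excess of risers comes from this rule was not tested. All 111 passed the filter on low counts, and 109 of them had 10 or more counts in every library, the exceptions being LINC02392 and LINC01270.

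The size of change also differed from protein-coding genes. The median absolute log2 fold change was 0.45 for the LINC genes and 0.23 for the protein-coding genes at 75 µg/ml. These medians were 0.52 and 0.33 at 150 µg/ml. The signed medians were close to 0: 0.07 for LINC and -0.01 for protein-coding genes at 75 µg/ml. They were 0.11 and -0.02 at 150 µg/ml. Without DMSO replicate 1, the LINC medians were 0.17 at both doses, and the excess over the protein-coding median went from 0.08 to 0.17 at 75 µg/ml and from 0.12 to 0.19 at 150 µg/ml. This excess was also larger without any other library of the groups compared. It was then 0.10 to 0.13 for 75 µg/ml and 0.13 to 0.19 for 150 µg/ml. A change of 1 or more on the log2 scale that passed the test was found for 16 rises and 4 falls at 75 µg/ml and for 17 rises and 9 falls at 150 µg/ml. This was 14.4% and 3.60% of the LINC genes at 75 µg/ml, against 3.17% and 0.895% of the protein-coding genes. At 150 µg/ml it was 15.3% and 8.11%, against 5.23% and 3.63%. The LINC genes were measured less precisely, with a median SE of the log2 fold change of 0.23 at 150 µg/ml against 0.09 for the protein-coding genes.

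**Figure D2:**
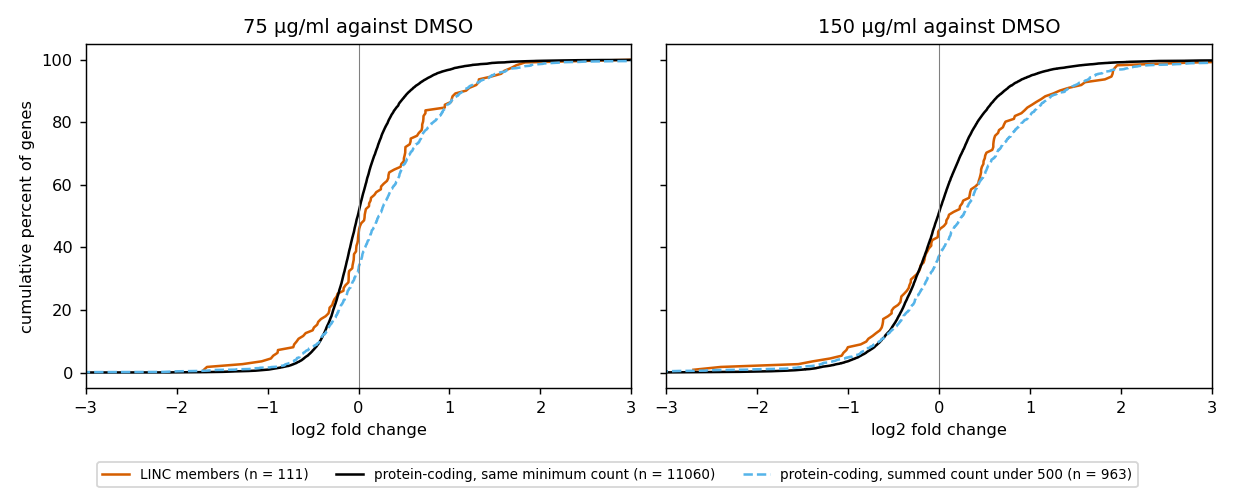
Cumulative percent of genes (y axis) by log2 fold change (x axis, shown from -3 to 3) at each dose, for the 111 LINC genes, the 11060 protein-coding genes and the 963 protein-coding genes with a summed count under 500. The LINC curve is wider than that of all protein-coding genes and, above 0.5, runs close to that of the protein-coding genes with low counts.

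The LINC genes were also set against protein-coding genes of equal count. In the band with a summed count of 200 to under 500, which holds 57 of the LINC genes, 21.1% rose and 8.77% fell at 75 µg/ml, against 23.6% and 3.74% of 963 protein-coding genes in that band. At 150 µg/ml the same LINC genes split 21.1% to 12.3%, and the protein-coding genes 27.8% to 9.76%. In the band of 500 to under 2000, 44 LINC genes split 27.3% to 11.4% at 75 µg/ml and 31.8% to 20.5% at 150 µg/ml, close to 27.1% to 11.2% and 34.1% to 19.3% of 2421 protein-coding genes. From 2000 counts upward the shares stood further apart: 6 of 10 LINC genes rose and 2 fell at 150 µg/ml, against 27.3% and 39.9% of 7676 protein-coding genes. Those 10 genes are too few for their shares to be precise. Within the lowest band, rises of 1 or more at 150 µg/ml made up 15.8% of LINC and 17.7% of protein-coding genes, and such falls 7.02% and 4.78%. There the median SE was 0.29 and 0.28, and the median absolute change was 0.60 for LINC genes and 0.51 for protein-coding genes at 150 µg/ml. The median of the LINC genes in that band was -0.09, below the 0.25 of the protein-coding genes.

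**Figure D3:**
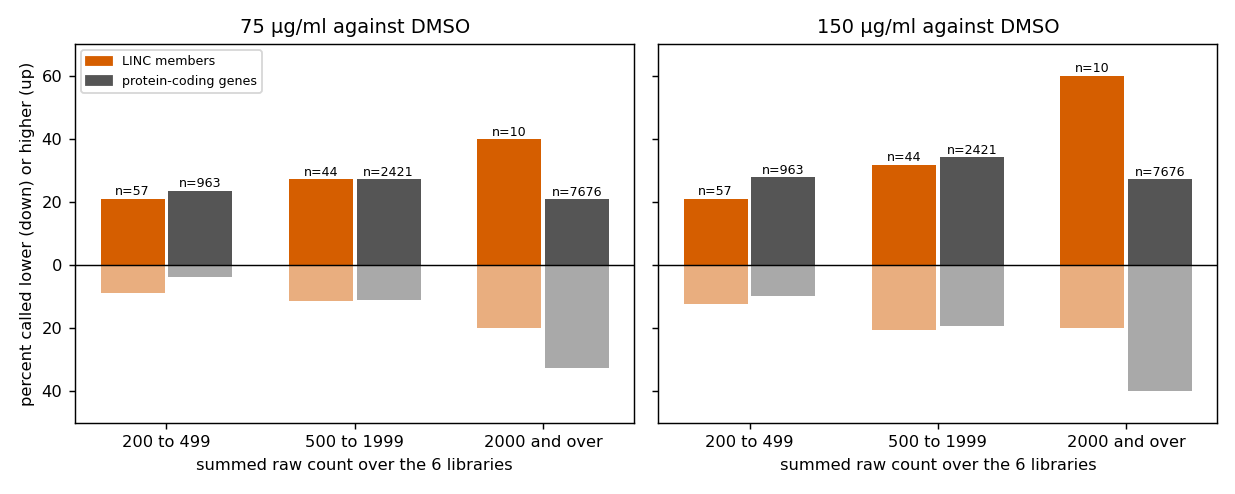
Percent of genes that rose (bars above 0) and fell (bars below 0) at each dose against DMSO, by band of summed count, for LINC and protein-coding genes, with the number of genes above each bar. In the band of 500 to under 2000 counts the LINC and protein-coding bars are of nearly equal height.

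The split between rises and falls depends on how libraries are scaled. With total counts in place of TMM, the median of all genes tested moved from 0.01 to 0.14 at 75 µg/ml and from 0.03 to 0.22 at 150 µg/ml. The share of rises among called protein-coding genes then went from 47.0% to 69.6% at 75 µg/ml and from 46.8% to 68.1% at 150 µg/ml. The LINC medians moved with it, to 0.20 and 0.30. With total counts, 37 LINC genes rose and 9 fell at 75 µg/ml, and 46 rose and 13 fell at 150 µg/ml. No LINC change that passed the test and is named below for its size or level reversed under either other scaling, total counts or DESeq2 size factors.

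Other classes of noncoding RNA with the same minimum count gave other splits at 150 µg/ml. Of all genes tested, 25.8% rose and 25.7% fell. Of 215 genes with an antisense symbol, 74 rose and 23 fell (34.4% and 10.7%), with a median log2 fold change of 0.27. Of 379 other long noncoding RNAs, 101 rose and 46 fell (26.65% and 12.1%), with a median of 0.15. Their share of rises was thus near that of all genes, and their share of falls was smaller. Among host genes of microRNAs 4 of 22 rose and 10 fell (18.2% and 45.45%). Among those of small nucleolar RNAs 3 of 18 rose and 8 fell (16.7% and 44.4%). The differences between these classes and the LINC genes were not tested.

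LINC02392 rose most at both doses, but it met the count minimum only through its treated counts, so its place among these genes depends on its rise. It is a spliced RNA of 1122 exonic bases at chr12:90280894-90300340 that overlaps no other gene. Its level was 0.252 and 0.196 CPM with DMSO, 2.02 and 1.80 CPM at 75 µg/ml, and 4.90 and 3.83 CPM at 150 µg/ml. The 3 groups did not overlap and rose with dose. The log2 fold change was 3.04 ± 0.47 (SE) at 75 µg/ml (edgeR adjusted p = 5.9e-05) and 4.23 ± 0.42 at 150 µg/ml (edgeR adjusted p = 2.11e-07), and 150 exceeded 75 µg/ml by 1.19 ± 0.30 (edgeR adjusted p = 0.00809). The DMSO level rests on 7 counts against 147 at 150 µg/ml, a ratio of 22.04 with a 95% interval of 10.4 to 55.8 that covers counting error only. This ratio was scaled by total gene counts without TMM, unlike the log2 fold change, which stands for a fold of 18.8.

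LINC01270 had the second largest rise at 150 µg/ml, and it too met the count minimum only through its treated counts. It lies at chr20:50292720-50314922, and 44.2% of its exonic bases are shared with another gene. Its level was 0.693 and 0.589 CPM with DMSO, 2.87 and 1.44 CPM at 75 µg/ml, and 4.29 and 4.76 CPM at 150 µg/ml. Every treated library stood above both DMSO libraries. The log2 fold change was 1.73 ± 0.42 at 75 µg/ml (edgeR adjusted p = 0.00302) and 2.80 ± 0.38 at 150 µg/ml (edgeR adjusted p = 9.1e-06). Without replicate 1 at 75 µg/ml, the higher of that group, the change at 75 µg/ml was 1.15 and no longer passed (edgeR adjusted p = 0.0771).

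**Figure D4:**
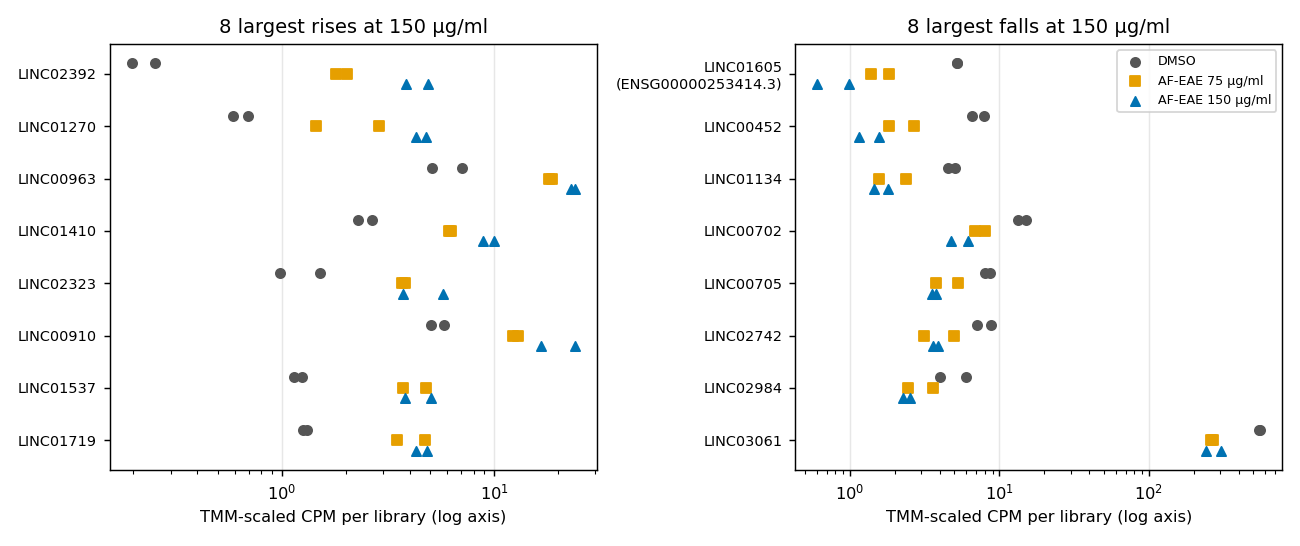
Level of the LINC genes with the 8 largest rises (left) and 8 largest falls (right) at 150 µg/ml, in TMM-scaled CPM on a log axis, with 1 point per library. For each of these 16 genes both libraries at 150 µg/ml lie on the same side of both DMSO libraries. The genes were picked by their change in this same comparison, so this separation is no further support for it.

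LINC00963, a spliced RNA described in prostate and other tumours, was the most abundant of the 8 largest risers. Its level was 5.11 and 7.07 CPM with DMSO, 18.1 and 18.8 CPM at 75 µg/ml, and 23.2 and 24.0 CPM at 150 µg/ml. Its rise was 1.60 ± 0.15 at 75 µg/ml and 1.96 ± 0.14 at 150 µg/ml (edgeR adjusted p = 4.18e-09 at 150 µg/ml). The 3 groups did not overlap, and the step between the doses, 0.35 ± 0.12, narrowly passed (edgeR adjusted p = 0.0492).

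LINC01410 and LINC00910 also rose from dose to dose. LINC01410 was at 2.65 and 2.29 CPM with DMSO, 6.11 and 6.25 CPM at 75 µg/ml, and 9.97 and 8.88 CPM at 150 µg/ml, a log2 fold change of 1.32 at 75 and 1.93 at 150 µg/ml. LINC00910 was at 5.80 and 5.04 CPM with DMSO, 12.3 and 13.0 CPM at 75 µg/ml, and 24.1 and 16.7 CPM at 150 µg/ml, a log2 fold change of 1.22 and 1.91. In both, 150 exceeded 75 µg/ml, by 0.61 ± 0.18 and 0.69 ± 0.16 (edgeR adjusted p = 0.0205 and 0.0043).

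LINC02323, LINC01537 and LINC01719 had most of their rise at 75 µg/ml. LINC02323 was at 1.51 and 0.982 CPM with DMSO, 3.67 and 3.78 CPM at 75 µg/ml, and 5.74 and 3.71 CPM at 150 µg/ml. LINC01537 was at 1.14 and 1.24 CPM with DMSO, 4.77 and 3.72 CPM at 75 µg/ml, and 3.81 and 5.05 CPM at 150 µg/ml. LINC01719 was at 1.26 and 1.31 CPM with DMSO, 3.48 and 4.75 CPM at 75 µg/ml, and 4.29 and 4.82 CPM at 150 µg/ml. The 2 doses overlapped in all 3 genes, and their steps of 0.34, 0.06 and 0.15 did not pass (edgeR adjusted p = 0.422, 0.899 and 0.737). Against DMSO they rose by 1.57, 1.83 and 1.67 at 75 µg/ml and by 1.91, 1.89 and 1.82 at 150 µg/ml, each with an edgeR adjusted p of at most 0.000937.

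The deepest fall was on the second row of LINC01605, a 510-base RNA inside an intron of the first row, at chr8:37516410-37517021, named AC124067.2 in GENCODE 29. It was at 5.23 and 5.24 CPM with DMSO, 1.83 and 1.38 CPM at 75 µg/ml, and 0.604 and 0.987 CPM at 150 µg/ml. It fell by 1.70 on the log2 scale at 75 µg/ml and by 2.70 at 150 µg/ml (edgeR adjusted p = 0.000248 and 2.78e-06). The first row of LINC01605 spans it on the same strand and went another way. It was at 18.7 and 15.3 CPM with DMSO, 13.6 and 13.7 CPM at 75 µg/ml, and 17.5 and 19.2 CPM at 150 µg/ml, and only its step between the doses passed, at 0.43 ± 0.13 (edgeR adjusted p = 0.0226).

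LINC00452, at chr13:113888306-113923512, fell next. It was at 7.88 and 6.55 CPM with DMSO, 1.83 and 2.70 CPM at 75 µg/ml, and 1.15 and 1.57 CPM at 150 µg/ml. The log2 fold change was -1.67 ± 0.26 at 75 µg/ml and -2.40 ± 0.28 at 150 µg/ml (edgeR adjusted p = 8.18e-05 and 1.6e-06). The groups did not overlap, but the step of -0.74 ± 0.32 between the doses did not pass (edgeR adjusted p = 0.113).

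For LINC01134, LINC00702, LINC00705, LINC02742 and LINC02984, the next falls in size, no step between the doses passed the test. LINC01134, described in liver tumours, was at 5.04 and 4.52 CPM with DMSO, 2.38 and 1.56 CPM at 75 µg/ml, and 1.81 and 1.45 CPM at 150 µg/ml, a change of -1.27 and -1.55. LINC00702 and LINC00705 lie on the same arm of chromosome 10, at chr10:4201141-4243912 and chr10:4655427-4662419, and both fell. LINC00702 was at 15.1 and 13.4 CPM with DMSO, 8.01 and 6.91 CPM at 75 µg/ml, and 6.17 and 4.76 CPM at 150 µg/ml, a change of -0.94 and -1.39. LINC00705 was at 8.70 and 8.05 CPM with DMSO, 5.26 and 3.78 CPM at 75 µg/ml, and 3.75 and 3.54 CPM at 150 µg/ml, a change of -0.89 and -1.20. For these 3 genes every treated library lay below both DMSO libraries, with edgeR adjusted p of 0.000335, 2.18e-06 and 0.000129 at 150 µg/ml.

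LINC02742 and LINC02984 had smaller falls at 150 µg/ml. LINC02742 was at 7.06 and 8.77 CPM with DMSO, 3.12 and 4.99 CPM at 75 µg/ml, and 3.63 and 3.89 CPM at 150 µg/ml, and fell by 0.96 and 1.07 on the log2 scale. LINC02984 was at 4.03 and 5.96 CPM with DMSO, 3.61 and 2.46 CPM at 75 µg/ml, and 2.54 and 2.26 CPM at 150 µg/ml. Its change of -1.05 ± 0.28 at 150 µg/ml (edgeR adjusted p = 0.00461) became -0.75 and no longer passed without DMSO replicate 2 (edgeR adjusted p = 0.0735). Its change of -0.72 at 75 µg/ml lay at the threshold (edgeR adjusted p = 0.0483) and became -0.41 (edgeR adjusted p = 0.37) without that library and -0.47 (edgeR adjusted p = 0.3) without replicate 2 at 75 µg/ml.

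LINC03061 was the most abundant of the LINC genes, both in CPM and per kilobase. It lies at chr13:109269634-109278512 and overlaps no other gene. Its level was 555 and 546 CPM with DMSO, 259 and 268 CPM at 75 µg/ml, and 301 and 242 CPM at 150 µg/ml. All 4 treated libraries lay below both DMSO libraries, and the 2 doses overlapped. The log2 fold change was -1.06 ± 0.07 at 75 µg/ml and -1.02 ± 0.07 at 150 µg/ml (edgeR adjusted p = 3.94e-09 and 1.79e-09), with a step of 0.04 ± 0.07 between them (edgeR adjusted p = 0.734).

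LINC00472, whose low level has been tied to aggressive breast tumours, was second in CPM. It was at 153 and 178 CPM with DMSO, 94.1 and 116 CPM at 75 µg/ml, and 80.8 and 84.7 CPM at 150 µg/ml. It fell at both doses, by 0.66 and 1.00 on the log2 scale, and further from 75 to 150 µg/ml, by 0.35 (edgeR adjusted p = 7.5e-06, 2.58e-08 and 0.00867). The groups did not overlap.

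The next 3 LINC genes by mean CPM, LINC02693, LINC00205 and LINC02970, rose at 150 µg/ml. LINC02970, a short RNA of 625 exonic bases whose promoter window is shown above, was at 17.7 and 17.3 CPM with DMSO, 44.6 and 41.2 CPM at 75 µg/ml, and 50.8 and 55.4 CPM at 150 µg/ml. LINC00205 was at 31.0 and 28.5 CPM with DMSO, 47.9 and 48.4 CPM at 75 µg/ml, and 53.7 and 57.5 CPM at 150 µg/ml. LINC02970 rose by 1.29 and 1.60 and LINC00205 by 0.69 and 0.90 (edgeR adjusted p = 1.62e-10 and 5.76e-08 at 150 µg/ml), and in both genes the groups were ordered by dose without overlap. LINC02693, the row typed protein-coding in GENCODE 29, was at 55.4 and 48.8 CPM with DMSO, 57.3 and 55.7 CPM at 75 µg/ml, and 82.7 and 81.7 CPM at 150 µg/ml. Its step from 75 to 150 µg/ml was 0.54 ± 0.07 (edgeR adjusted p = 3.87e-05).

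Per kilobase of exon the order of the 5 highest mean levels was LINC03061 at 71.2 CPM, LINC02970 at 60.6, LINC00472 at 34.3, LINC00888 at 12.2 and LINC00342 at 11.3. LINC00888 was at 18.2 and 19.6 CPM with DMSO, 30.0 and 26.3 CPM at 75 µg/ml, and 31.4 and 30.5 CPM at 150 µg/ml, and rose by 0.57 and 0.71. LINC00342 was at 32.7 and 30.1 CPM with DMSO, 28.0 and 30.3 CPM at 75 µg/ml, and 29.01 and 27.6 CPM at 150 µg/ml. Its changes of -0.11 and -0.15 did not pass (edgeR adjusted p = 0.399 and 0.202).

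Between the doses, 14 LINC genes were higher and 6 lower at 150 than at 75 µg/ml, 12.6% and 5.41%, against 9.51% and 12.5% of all genes tested. The higher ones were LINC02392, LINC01270, LINC00662, LINC00910, LINC02604, LINC02577, LINC01410, LINC00174, LINC02693, LINC01605, LINC00863, LINC00963, LINC01278 and LINC02970, by 0.31 to 1.19. Of these, LINC00662 was at 13.4 and 9.95 CPM with DMSO, 18.3 and 19.7 CPM at 75 µg/ml, and 30.3 and 32.5 CPM at 150 µg/ml, a step of 0.72 ± 0.12 (edgeR adjusted p = 0.00036). The lower ones were LINC01411, LINC03033, LINC01224, LINC01963, LINC02009 and LINC00472. LINC01963 was at 15.4 and 15.8 CPM with DMSO, 16.1 and 14.8 CPM at 75 µg/ml, and 10.3 and 11.7 CPM at 150 µg/ml. Its libraries at 75 µg/ml lay on either side of the DMSO values, and both at 150 µg/ml lay below them. These counts fell when 1 treated library was left out: 6 higher and 4 lower were called without replicate 1 at 75 µg/ml, 6 and 3 without its replicate 2, 5 and 1 without replicate 1 at 150 µg/ml, and 7 and 3 without its replicate 2.

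LINC01411 was called in opposite directions in different comparisons. It was at 1.39 and 2.29 CPM with DMSO, 3.85 and 5.35 CPM at 75 µg/ml, and 2.12 and 2.90 CPM at 150 µg/ml. It rose by 1.32 ± 0.31 at 75 µg/ml (edgeR adjusted p = 0.00281) and was lower by 0.87 ± 0.30 at 150 than at 75 µg/ml (edgeR adjusted p = 0.0452). The libraries at 75 µg/ml stood above the other 4, and the 0.45 at 150 µg/ml against DMSO did not pass (edgeR adjusted p = 0.273). LINC00654, LINC00674, LINC00899 and LINC01002 also rose at 75 µg/ml, by 0.66, 0.95, 1.03 and 0.95, and their 0.40, 0.44, 0.60 and 0.83 at 150 µg/ml did not pass, but no step between the doses passed for these 4.

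The nearest protein-coding gene, by distance between 5′ ends, lay at a median of 53468 bases, within 10 kb for 17 of the LINC genes and beyond 100 kb for 37. At 150 µg/ml the neighbours of the 50 LINC genes that changed were called in the same direction in 23 cases, in the opposite one in 9, were not past the test in 10 and were not tested in 8. At 75 µg/ml these numbers were 18, 4, 11 and 7 of 40. Over all 106 distinct neighbours, 21 rose, 29 fell, 28 did not pass and 28 were not tested at 150 µg/ml. At 75 µg/ml, 18 rose, 25 fell, 35 did not pass and 28 were not tested. A LINC gene and its neighbour were measured in the same libraries, and a shared direction of call does not show that they are regulated together.

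**Figure D5:**
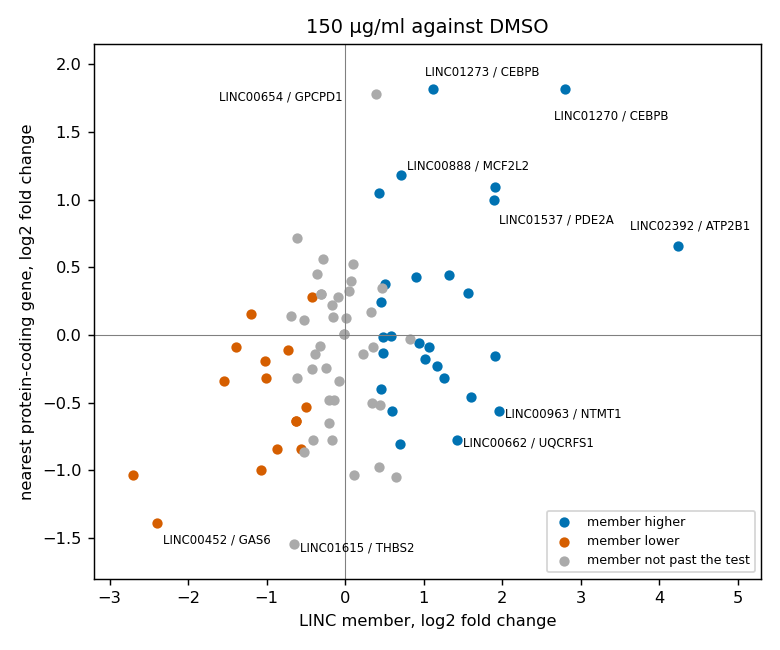
Log2 fold change at 150 µg/ml of each LINC gene (x axis) and of its nearest protein-coding gene (y axis), for the 82 pairs with a tested neighbour, coloured by the call of the LINC gene. CEBPB stands at 1.81 beside both LINC01270 and LINC01273, and GAS6 at -1.39 beside LINC00452.

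Both LINC genes nearest to CEBPB rose. CEBPB encodes a basic leucine zipper transcription factor of inflammatory and stress responses. It was at 49.4 and 42.6 CPM with DMSO, 125 and 132 CPM at 75 µg/ml, and 150 and 174 CPM at 150 µg/ml beside LINC01273 and LINC01270, a rise of 1.48 and 1.81 (edgeR adjusted p = 3.94e-10 and 6.69e-12). LINC01270 starts 101986 bases from it and LINC01273 starts 18184 bases from it, with 116049 bases between the 2. LINC01273, the member with the lowest summed count at 201, was at 1.32 and 0.982 CPM with DMSO, 2.38 and 2.46 CPM at 75 µg/ml, and 2.72 and 2.32 CPM at 150 µg/ml. Its rises of 1.06 and 1.12 (edgeR adjusted p = 0.0198 and 0.0103) no longer passed without DMSO replicate 2, at 0.87 and 0.92 (edgeR adjusted p = 0.122 and 0.0785). The rise at 75 µg/ml also failed without either library of that dose (edgeR adjusted p = 0.0638 and 0.0805) and with DESeq2 (adjusted p = 0.0772), and that at 150 µg/ml failed without its replicate 1 (edgeR adjusted p = 0.0715). Just below the count limit, LINC03002 had a sum of 187, with 37 and 51 counts with DMSO, 39 and 27 counts at 75 µg/ml and 25 and 8 counts at 150 µg/ml.

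LINC00452 and its neighbour GAS6 fell together. GAS6 encodes a secreted ligand of the receptor tyrosine kinases AXL, TYRO3 and MERTK, and its 5′ end lies 24239 bases from that of LINC00452. GAS6 was at 104 and 93.4 CPM with DMSO, 56.5 and 59.3 CPM at 75 µg/ml, and 33.97 and 41.6 CPM at 150 µg/ml beside LINC00452. It fell by 0.77 and 1.39 on the log2 scale (edgeR adjusted p = 1.41e-06 and 5.9e-10). LINC01537 and PDE2A, which encodes a cyclic nucleotide phosphodiesterase, both rose, PDE2A by 0.79 and 1.00.

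Other pairs went apart. NTMT1, an N-terminal methyltransferase gene nearest to LINC00963, fell by 0.43 and 0.56 on the log2 scale where LINC00963 rose. UQCRFS1, a subunit gene of respiratory complex III and nearest to LINC00662, fell by 0.45 and 0.77 where LINC00662 rose, but their 5′ ends are 1419601 bases apart. SLCO4A1, a solute transporter gene nearest to LINC02970, rose by 0.45 at 75 µg/ml and fell by 0.46 at 150 µg/ml, while LINC02970 rose at both doses.

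Of the LINC genes, 14 start head to head with a protein-coding gene within 5 kb, an arrangement in which both can use 1 promoter region. Of these 14, 6 changed at 150 µg/ml, where 45.1% of all 111 LINC genes and 51.5% of all genes tested changed. The neighbour was called in the same direction in 2, LINC00205 and LINC01134, and in the opposite one in 1, LINC01547. LINC00205 starts 152 bases from POFUT2, a protein O-fucosyltransferase gene, which rose by 0.20 and 0.43 (edgeR adjusted p = 0.0344 and 5.89e-05). LINC01134 starts 79 bases from C1orf174, which had a change of -0.24 at 75 µg/ml (edgeR adjusted p = 0.0784) and of -0.34 at 150 µg/ml (edgeR adjusted p = 0.0135). LINC01547 starts 97 bases from SLX9 and rose by 0.70 at 150 µg/ml (edgeR adjusted p = 0.0316), where SLX9 fell by 0.80 (edgeR adjusted p = 4.67e-07).

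LINC01135 starts 801 bases from JUN, the gene of an AP-1 subunit. LINC01135 was at 1.58 and 1.83 CPM with DMSO, 3.67 and 3.24 CPM at 75 µg/ml, and 3.08 and 4.06 CPM at 150 µg/ml, a rise of 1.02 and 1.07 (edgeR adjusted p = 0.011 and 0.00547). JUN was at 263 and 225 CPM with DMSO, 183 and 186 CPM at 75 µg/ml, and 243 and 215 CPM at 150 µg/ml beside LINC01135. JUN fell by 0.40 at 75 µg/ml (edgeR adjusted p = 0.000167), and its -0.09 at 150 µg/ml did not pass (edgeR adjusted p = 0.283).

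LINC genes close to each other gave both pictures. LINC01291 and LINC01293 lie 1840 bases apart on the same strand, and both fell at 150 µg/ml, by 0.63 and 0.62, as did their neighbour POLE4, a DNA polymerase epsilon subunit gene, by 0.64. LINC00662 and LINC02987 overlap on opposite strands: LINC00662 rose by 0.70 and 1.42, while LINC02987 had -0.36 and -0.42, which did not pass.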

How the data were processed

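Per the labels' protocols, total RNA was made into libraries with a NEBNext Ultra RNA kit. The authors deposited a table of raw read counts per gene for each library (60651 genes, and 5 further lines that name no gene). HISAT2 2.2.1, HTSeq 2.0.2 and hg38 are named per the submitters' processing notes. The sources used here do not give the counting options, strand use or annotation release. The 5 lines without a gene stayed out of library sizes. As shares of gene counts and these 5 lines together, reads outside genes were 6.32% to 7.98%. Reads in overlapping genes, which are lost to both, were 10.95% to 11.48%. Symbols were found for 60437 rows, and 58361 matched GENCODE 29 on GRCh38, the source of coordinates, types and neighbours. The test was that of edgeR 4.0.16 under R 4.3.3 (TMM, the default filter by group, quasi-likelihood test, all 6 libraries, Benjamini-Hochberg adjustment at 0.05 over 15589 genes), with code tested on simulated data. The SE of a log2 fold change comes from its F statistic. The interval of LINC02392 is an exact binomial one on summed counts. Promoter windows are RefSeq's on GRCh38.p14, with the first start listed per symbol.

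The text names the 8 largest rises and falls at 150 µg/ml and the 6 at 75 µg/ml among LINC genes that passed the test, the 5 highest in CPM and per kilobase, those called in opposite directions, and those nearest the count limit. Other LINC genes were named after their values were seen. The LINC genes, lists and tests were chosen with earlier results of these data known. Alternatives were DESeq2 1.42.0 and its size factors, total counts, limma-voom (limma 3.58.1), no filter, a filter at 1 CPM in 2 libraries, only the 2 groups compared, a replicate block, each library left out, stricter calls, and other choices of LINC genes.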

Additional observations from a re-analysis of the deposited data

How the results depend on the processing

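No call of a LINC gene named for its size or level reversed under the alternatives. Of the recomputed values of these genes, 739 stayed on their side of the threshold, 28 lost and 1 gained the call, LINC02693 at 75 µg/ml with total counts (0.24). Over all genes tested, the deviations of same-numbered libraries correlated at 0.059, 0.041 and 0.0037, so no shared shift by replicate number was seen. These values cannot show whether the cultures were set up in pairs. With a replicate block, 28 LINC genes rose and 14 fell at 75 µg/ml, while 33 rose and 19 fell at 150 µg/ml.

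With total counts the median log2 fold change of the LINC genes was 0.20 at 75 µg/ml, 0.30 at 150 µg/ml and 0.068 between the doses. With a log2 fold change of at least 1, there were 16 rises and 4 falls at 75 µg/ml, 17 rises and 9 falls at 150 µg/ml, and 2 and 0 between the doses. Among the 54 with a summed count of 500 or more, 16 rose and 7 fell at 75 µg/ml, while 20 rose and 11 fell at 150 µg/ml. Among the 66 whose exons overlap no other gene, 20 rose and 13 fell at 150 µg/ml, and 7 were higher and 4 lower at 150 than at 75 µg/ml. Of all genes tested, 19.2% rose and 19.4% fell at 75 µg/ml, 25.8% and 25.7% at 150 µg/ml, and 9.51% and 12.5% between the doses. Protein-coding genes of 500 to under 2000 counts also rose more often than they fell at both doses, while those from 2000 counts upward fell more often. Between the doses, DESeq2 called 7 and 2, and an adjusted p of 0.01 left 6 and 1. Leaving out each library in turn gave 5 to 14 higher and 1 to 6 lower between the doses. It gave medians of 0.060 to 0.17 at 75 µg/ml (highest without DMSO replicate 1), 0.10 to 0.17 at 150 µg/ml and -0.0072 to 0.046 between the doses. The LINC median minus that of protein-coding genes, 0.08, 0.12 and 0.02 with all libraries, was then 0.077 to 0.17, 0.12 to 0.19 and 0.0036 to 0.062. Some subsets hold fewer genes by construction; the cause of the other shifts was not tested. Depth limits LINC02392 and LINC01270 most, with 7 and 20 counts over both DMSO libraries.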
